A study of Homo sapiens with 6 samples.

Results

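The genes described here are *EGFR*, *ERBB3* and 8 genes grouped as inhibitors of receptor and extracellular signal-regulated kinase (ERK) signalling. The 8 are *ERRFI1*, *LRIG1*, *LRIG3*, *DUSP4*, *DUSP5*, *DUSP6*, *SPRY2* and *SPRY4*. All 10 genes were picked by symbol from the 58735 genes in the deposited count matrix. All 10 passed the filter on low counts that left 13768 genes for testing. They were chosen with the difference between the groups already known, so their group differences are given as a description. The cells were OE33, an established line of human esophageal adenocarcinoma grown in RPMI1640 with serum, measured by bulk sequencing of polyadenylated RNA. Cells of the ABS group had spent 20 min in unsupplemented medium at pH 4.0 with 200 µM of a bile salt cocktail and then 6 h in complete medium, a model of acute reflux. Cells of the Ctrl group were untreated, and the labels gave neither the composition of the cocktail nor a mock handling of these cells. The groups had 3 biological replicates each, and the labels gave no group with acid, bile salts or medium change alone, so these cannot be told apart. All results concern a single cell line.

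EGFR and ERBB3 are receptor tyrosine kinases of the ERBB family. Ligand-bound EGFR dimerises and signals through RAS, RAF and MEK to ERK, while ERBB3 has an impaired kinase and acts in pairs with other family members, above all ERBB2. The pathway induces several of its own inhibitors. ERRFI1 (MIG6) binds the kinase domain of ERBB receptors and blocks it, and LRIG1 is a transmembrane protein that lowers receptor levels. LRIG3 is a relative of LRIG1, and whether it inhibits these receptors was not tested here. Sprouty proteins (SPRY2, SPRY4) act between the receptor and RAF, and DUSP4, DUSP5 and DUSP6 are phosphatases that remove phosphate from mitogen-activated protein kinases, DUSP4 and DUSP5 in the nucleus and DUSP6 in the cytoplasm. ERBB receptors are frequently altered in adenocarcinomas of the esophagus.

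Promoter windows from RefSeq (GRCh38.p14, 250 bases before to 50 bases after the start) were matched for 7 of the 10 genes, all but *ERBB3*, *DUSP4* and *DUSP5*. Those of *ERRFI1*, *LRIG3* and *DUSP6* are shown because these genes lay lower in every ABS library than in every Ctrl library, and that of *EGFR* because it is the receptor on which ERRFI1 acts. Each is written along the strand of its gene, 5′ to 3′, in lower case, with matches to any of the motifs searched in capitals.
*ERRFI1*, chr1:8026260-8026559, minus strand: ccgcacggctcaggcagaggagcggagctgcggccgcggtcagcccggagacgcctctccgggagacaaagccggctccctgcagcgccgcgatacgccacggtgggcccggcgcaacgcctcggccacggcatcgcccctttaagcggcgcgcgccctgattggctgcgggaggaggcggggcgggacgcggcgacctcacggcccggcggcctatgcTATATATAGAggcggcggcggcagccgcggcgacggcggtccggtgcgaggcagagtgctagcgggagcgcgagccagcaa
*LRIG3*, chr12:58920455-58920754, minus strand: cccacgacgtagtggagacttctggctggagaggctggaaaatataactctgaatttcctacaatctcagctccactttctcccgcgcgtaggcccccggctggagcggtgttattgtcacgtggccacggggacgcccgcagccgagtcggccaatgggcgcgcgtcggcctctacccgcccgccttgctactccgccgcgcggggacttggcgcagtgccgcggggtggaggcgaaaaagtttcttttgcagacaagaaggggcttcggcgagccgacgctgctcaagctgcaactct
*DUSP6*, chr12:89352452-89352751, minus strand: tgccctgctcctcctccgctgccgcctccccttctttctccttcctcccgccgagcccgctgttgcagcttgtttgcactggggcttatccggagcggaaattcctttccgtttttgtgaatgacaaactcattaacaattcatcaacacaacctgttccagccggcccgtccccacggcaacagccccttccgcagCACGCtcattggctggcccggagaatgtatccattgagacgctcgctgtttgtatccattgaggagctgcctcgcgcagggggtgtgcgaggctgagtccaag
*EGFR*, chr7:55018767-55019066, plus strand: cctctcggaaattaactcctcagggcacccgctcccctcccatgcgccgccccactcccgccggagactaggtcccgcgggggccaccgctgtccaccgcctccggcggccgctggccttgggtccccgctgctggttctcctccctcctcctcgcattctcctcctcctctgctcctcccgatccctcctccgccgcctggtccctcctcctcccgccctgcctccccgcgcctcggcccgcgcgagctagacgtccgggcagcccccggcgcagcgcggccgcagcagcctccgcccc
The motifs, searched on both strands, were TGANTCA (AP-1), TGACGTCA (cAMP response element), CCGGAA (ETS family), GCGTG (aryl hydrocarbon receptor) and TATANA (TATA box). In the *ERRFI1* window the TATA letters matched at 3 overlapping positions, the first at −31 relative to the start, and no other motif matched. The *LRIG3* and *EGFR* windows held none of these letters. Among 34796 distinct windows of this length, 19.1% held TATANA, 7.73% TGANTCA, 1.84% TGACGTCA, 17.2% CCGGAA and 36.4% GCGTG. The *DUSP6* window, whose RefSeq start lies 770 bases inside the annotated gene, held GCGTG on the opposite strand at −53, in capitals as CACGC. Of the windows not shown, that of *LRIG1* held GCGTG and that of *SPRY2* held CCGGAA. The share of bases that are G or C was 74.7% in the *ERRFI1* window, 63.0% in that of *LRIG3*, 58.3% in that of *DUSP6* and 75.3% in that of *EGFR*.

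The ABS libraries held 23414287 to 25235686 counts and the Ctrl libraries 22145676 to 23683950. The epithelial markers EPCAM, CDH1, KRT8, KRT18 and KRT19 were abundant, with a summed level of 18098 to 18985 CPM (library-scaled counts, TMM method) in ABS libraries and 17272 to 20151.5 CPM in Ctrl libraries. The summed fibroblast markers lay at 2.59 to 4.11 CPM in ABS and 2.82 to 3.14 CPM in Ctrl libraries, with COL1A2 at 0 counts in every library and COL1A1 at 62 to 83 counts. The summed immune markers lay at 4.55 to 5.32 CPM in ABS and 4.76 to 6.01 CPM in Ctrl libraries, with PTPRC and CD3E at 0 and CD14 at 108 to 132 counts, and the summed endothelial markers reached at most 0.298 CPM. In both groups the library of replicate 3 differed from the others. These libraries lay at −29.0 (ABS) and −19.0 (Ctrl) on the second principal component, which held 25.9% of the variance, against 2.73 to 18.5 for the other 4 libraries. A chi-square statistic per degree of freedom on raw counts was 7.10 between the replicate 3 libraries, and 14.6 to 19.1 between a replicate 3 library and another library of its own group. In the fit over all genes (edgeR quasi-likelihood test, Benjamini-Hochberg adjusted p under 0.05), 60 of 13768 genes passed, 51 higher and 9 lower after ABS. The count was 13 without ABS replicate 1, 18 without ABS replicate 2, 17 without Ctrl replicate 1 and 12 without Ctrl replicate 2, but 273 without ABS replicate 3 and 438 without Ctrl replicate 3. Results are therefore given with and without the replicate 3 libraries.

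After ABS, *ERRFI1* fell to 0.682 times its Ctrl level, and *LRIG3* lay at 0.746 times its Ctrl level. The receptor *EGFR* and the phosphatase *DUSP5* were higher in ABS replicates 1 and 2 than in Ctrl replicates 1 and 2, but not between the replicate 3 libraries. *DUSP6*, *SPRY2*, *SPRY4* and *ERBB3* had log2 fold changes between −0.11 and 0.01. In the fit over all genes, *ERRFI1* was the single gene of the 10 that passed, against 0.436% of all tested genes in either direction and 0.0654% called lower. In 3 of the 10, *ERRFI1*, *LRIG3* and *DUSP6*, the ABS libraries all lay below the Ctrl libraries, against 14.5% of tested genes without overlap between the groups in either direction and 6.95% in this direction. Nothing is read from these shares, since this contrast was known when the genes were chosen. The median log2 fold change was −0.02 over the 10 genes and −0.0037 over all tested genes. In bulk RNA, less RNA per cell and fewer cells with the transcript cannot be told apart.

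**Figure D1:**
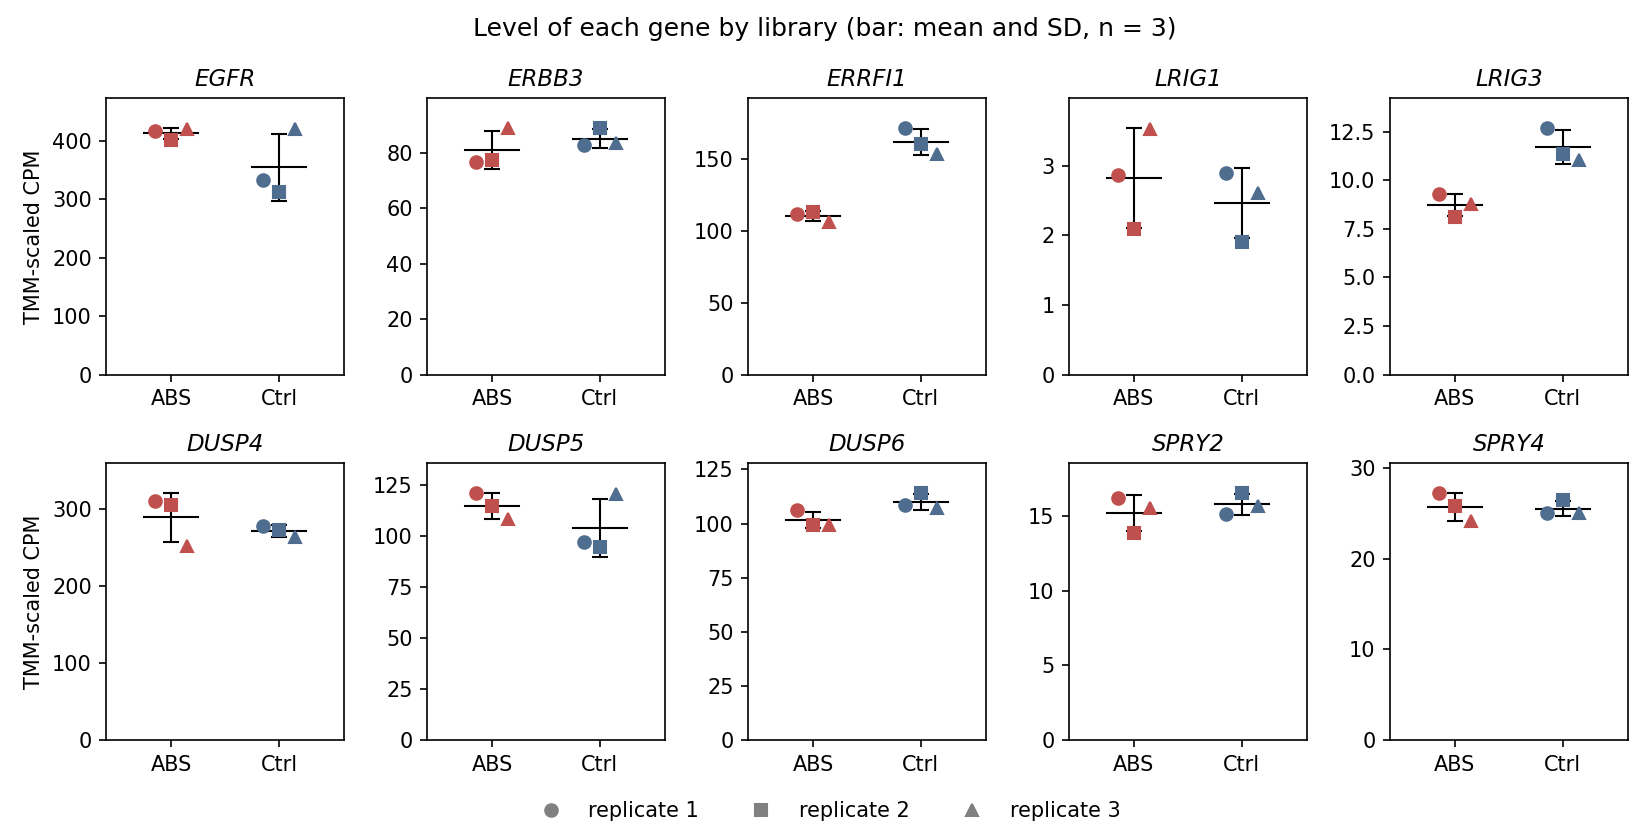
TMM-scaled CPM (y axis, from 0, own scale in each panel) of the 10 genes in the ABS and Ctrl libraries, with 1 symbol per replicate and black bars for the mean and SD (n = 3). The *ERRFI1* and *LRIG3* symbols of the groups are separate, while Ctrl replicate 3 of *EGFR* and *DUSP5* lies among the ABS libraries or above them.

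*ERRFI1* (ENSG00000116285, GRCh38 chromosome 1, 8004404 to 8026308, minus strand) had 111, 113 and 106 CPM in ABS replicates 1, 2 and 3, and 172, 160.4 and 153 CPM in Ctrl replicates 1, 2 and 3. The highest ABS library lay well below the lowest Ctrl library, and replicate 3 was the lowest of its group in both. The means were 110.3 ± 3.73 CPM after ABS and 162 ± 9.35 CPM in Ctrl (SD, n = 3 each), a log2 fold change of −0.55 ± 0.07 (SE, 95% interval −0.71 to −0.40). The difference was −0.56 within replicates 1 and 2 and −0.53 between the replicate 3 libraries, close to each other. The call ended without ABS replicate 1, Ctrl replicate 1 or Ctrl replicate 2, with log2 fold changes of −0.56, −0.51 and −0.56. The gene was read deeply, with 2591 to 2762 counts in ABS libraries and 3525 to 4040 in Ctrl libraries. An overlapping antisense gene held at most 3 counts in a library.

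*LRIG3* (ENSG00000139263, chromosome 12, 58872149 to 58920522, minus strand) had 9.28, 8.13 and 8.79 CPM in ABS replicates 1, 2 and 3, and 12.7, 11.4 and 11.04 CPM in Ctrl replicates 1, 2 and 3. The groups did not overlap. The means were 8.73 ± 0.575 CPM after ABS and 11.7 ± 0.881 CPM in Ctrl (SD, n = 3 each), a log2 fold change of −0.42 ± 0.14 (SE, 95% interval −0.72 to −0.13), and the gene did not pass over all genes. Its difference was −0.47 within replicates 1 and 2 and −0.33 between the replicate 3 libraries. It rested on 186 to 230 counts in ABS libraries and 250 to 299 counts in Ctrl libraries.

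*LRIG1* (ENSG00000144749, chromosome 3, 66378797 to 66501263, minus strand), the best studied receptor inhibitor of its family, was the lowest of the 10 genes, with 2.86, 2.10 and 3.53 CPM in ABS replicates 1, 2 and 3 and 2.89, 1.91 and 2.61 CPM in Ctrl replicates 1, 2 and 3. The groups overlapped, and the 95% interval of its log2 fold change, −0.43 to 0.83, was the widest of the 10. It was read at 48 to 90 counts in ABS libraries and 42 to 68 in Ctrl libraries, and changes within that interval were not excluded. Its annotated body shares 9320 bases with *SLC25A26* on the other strand, which held 318 to 426 counts, and without a stated strand setting reads of the genes cannot be told apart where their exons overlap.

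Of the receptors, *EGFR* (ENSG00000146648, chromosome 7, 55019021 to 55211628, plus strand) had 417, 401 and 419 CPM in ABS replicates 1, 2 and 3, and 332, 313 and 420.3 CPM in Ctrl replicates 1, 2 and 3. Ctrl replicate 3 lay at the level of the ABS libraries, while the other Ctrl libraries lay below all of them. The means were 413 ± 9.99 CPM after ABS and 355 ± 57.3 CPM in Ctrl (SD, n = 3 each), a log2 fold change of 0.22 ± 0.10 (SE, 95% interval 0.0021 to 0.43) that did not pass over all genes. It was 0.34 in replicates 1 and 2 and −0.0031 between the replicate 3 libraries. Without Ctrl replicate 3 it was 0.35 and the gene passed, among the 2.27% of tested genes called higher in that fit. With any other single library left out it was 0.13 to 0.24 and the gene did not pass. It passed in 2 of 13 alternative fits. *EGFR-AS1*, an antisense gene inside the locus, held at most 5 counts in a library.

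*ERBB3* (ENSG00000065361, chromosome 12, 56076799 to 56103505, plus strand) had 76.6, 77.4 and 88.9 CPM in ABS replicates 1, 2 and 3, and 82.8, 89.1 and 83.5 CPM in Ctrl replicates 1, 2 and 3. The groups overlapped, and ABS replicate 3 was the high library of its group. The log2 fold change was −0.07 (95% interval −0.25 to 0.11). *ERBB2*, which encodes the kinase-competent partner of ERBB3, averaged 946 ± 24.2 CPM after ABS and 967 ± 18.9 CPM in Ctrl (SD, n = 3 each), a log2 fold change of −0.03 (95% interval −0.17 to 0.11).

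Among the phosphatases, *DUSP5* (ENSG00000138166, chromosome 10, 110497838 to 110511544, plus strand), which acts on ERK in the nucleus, had 121, 115 and 108 CPM in ABS replicates 1, 2 and 3, and 96.7, 94.6 and 120.2 CPM in Ctrl replicates 1, 2 and 3. Ctrl replicate 3 lay among the ABS libraries, and the other Ctrl libraries lay below them. The log2 fold change over all libraries was 0.14 (95% interval −0.07 to 0.35), with 0.30 within replicates 1 and 2 and −0.15 between the replicate 3 libraries. The pseudogene *DUSP5P1* held at most 13 counts in a library.

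*DUSP4* (ENSG00000120875, chromosome 8, 29333064 to 29350668, minus strand) had 310.5, 305 and 253 CPM in ABS replicates 1, 2 and 3, and 279, 273 and 264 CPM in Ctrl replicates 1, 2 and 3. Here it was ABS replicate 3 that lay apart, below every Ctrl library, while the other ABS libraries lay above them all. The log2 fold change was 0.09 (95% interval −0.09 to 0.27), with 0.16 within replicates 1 and 2 and −0.06 between the replicate 3 libraries. *DUSP6* (ENSG00000139318, chromosome 12, 89347232 to 89353271, minus strand), the cytoplasmic ERK phosphatase, had 106, 99.3 and 99.5 CPM in ABS replicates 1, 2 and 3, and 109, 114 and 107 CPM in Ctrl replicates 1, 2 and 3. The *DUSP6* groups did not overlap, though ABS replicate 1 lay just under Ctrl replicate 3. Its log2 fold change was −0.11 (95% interval −0.27 to 0.04), with −0.12 within replicates 1 and 2 and −0.11 between the replicate 3 libraries.

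The Sprouty genes *SPRY2* and *SPRY4* gave no separation of the groups. *SPRY2* (ENSG00000136158, chromosome 13, 80335976 to 80340951, minus strand) had 16.2, 13.9 and 15.5 CPM in ABS replicates 1, 2 and 3, and 15.2, 16.6 and 15.7 CPM in Ctrl replicates 1, 2 and 3. *SPRY4* (ENSG00000187678, chromosome 5, 142310427 to 142326455, minus strand) had 27.2, 25.8 and 24.1 CPM in ABS replicates 1, 2 and 3, and 25.1, 26.5 and 24.98 CPM in Ctrl replicates 1, 2 and 3. The 95% intervals of the log2 fold changes were −0.31 to 0.20 for *SPRY2* and −0.20 to 0.22 for *SPRY4*, and the sign of either difference changed with single libraries left out.

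**Figure D2:**
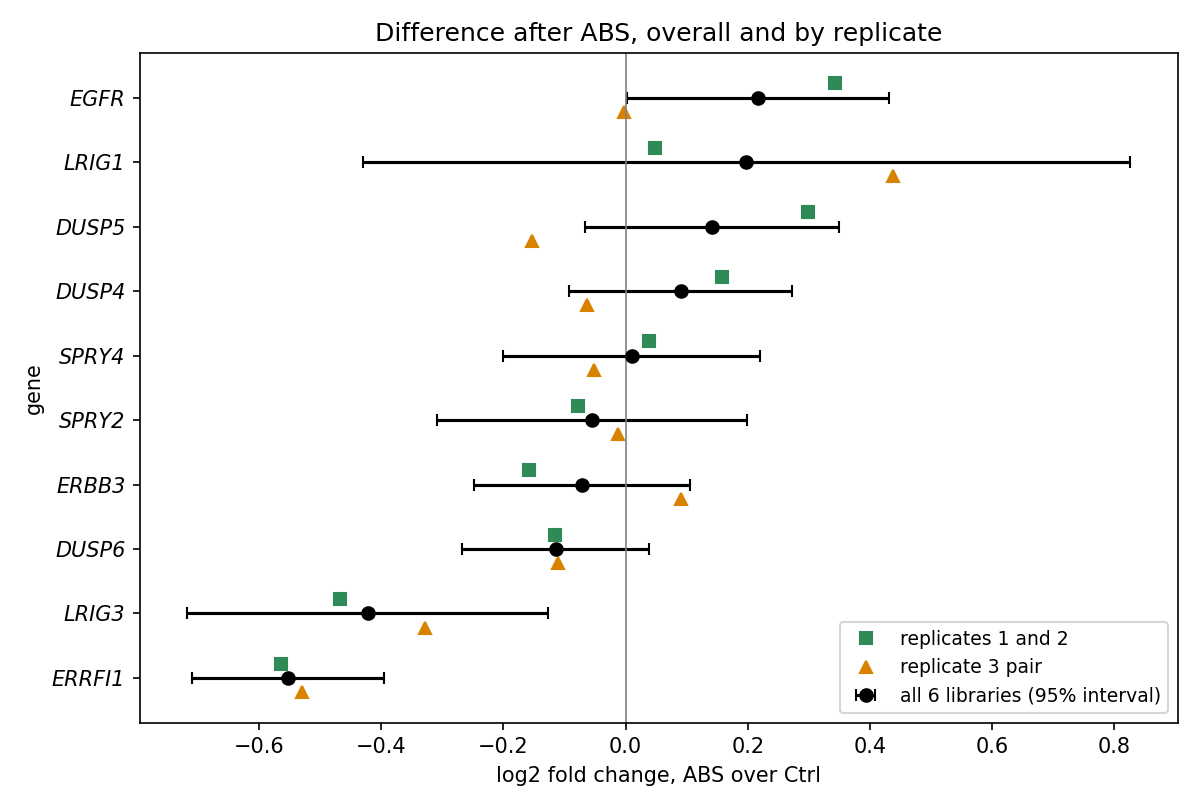
Log2 fold change of ABS over Ctrl (x axis) for the 10 genes, ordered by the value over all 6 libraries (black, with the 95% interval), beside the value within replicates 1 and 2 (green squares) and between the replicate 3 libraries (orange triangles). The 3 values of *ERRFI1* lie between −0.56 and −0.53, while *EGFR*, *DUSP5* and *DUSP4* are above 0 in replicates 1 and 2 and at or below 0 between the replicate 3 libraries.

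Fitted on replicates 1 and 2 alone, *EGFR*, *DUSP4* and *DUSP5* were called higher, as were 7.83% of all genes tested in that fit, and leaving out libraries that stand apart lowers the spread by construction. Whether the ABS difference itself differed in replicate 3 was examined with an interaction term in the fit over all genes (edgeR quasi-likelihood test). The split was chosen after the replicate 3 libraries had been seen to stand apart in these data. Its calls are therefore given as a description. Of 13768 genes, 328, or 2.38%, passed at an adjusted p under 0.05. Of the 10 genes, *EGFR* and *DUSP5* passed. The log2 difference in replicate 3 minus that in replicates 1 and 2 was −0.35 ± 0.08 for *EGFR* (SE, adjusted p = 0.0171) and −0.45 ± 0.10 for *DUSP5* (adjusted p = 0.00966). The call of *DUSP5* held in all 7 alternative fits, at adjusted p of 0.00214 to 0.0246. That of *EGFR* ended without Ctrl replicate 2, with a log2 value of −0.30 and an adjusted p of 0.0507, and held in the other 6 at 0.00237 to 0.0404. For *ERRFI1* the replicate 3 value differed by 0.03 (95% interval −0.16 to 0.23), for *LRIG3* by 0.14 (−0.43 to 0.71) and for *DUSP6* by 0.0056 (−0.21 to 0.22). *DUSP4* (−0.22, adjusted p = 0.195) and *ERBB3* (0.25, adjusted p = 0.331) did not pass. Replicate 3 has 1 library per group, and the spread in this test comes from replicates 1 and 2, so it does not hold the variation between separate cultures of the replicate 3 kind. In the Ctrl group alone, replicate 3 lay above the mean of replicates 1 and 2 by a log2 value of 0.38 for *EGFR* and 0.33 for *DUSP5*, and in the ABS group the same value was 0.04 and −0.12.

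Per kilobase of the deposited gene length, which sets genes of different length on a common scale, *DUSP5* (43.8 ± 2.46 CPM per kilobase), *DUSP4* (39.9 ± 4.41), *EGFR* (33.0 ± 0.798), *ERRFI1* (26.3 ± 0.892) and *DUSP6* (21.9 ± 0.836) led in ABS cells (mean ± SD, n = 3). The same scale in Ctrl cells gave *DUSP5* (39.7 ± 5.42), *ERRFI1* (38.6 ± 2.23), *DUSP4* (37.5 ± 1.02), *EGFR* (28.4 ± 4.58) and *DUSP6* (23.8 ± 0.783). *ERRFI1* thus ranked 4 among the 10 genes after ABS and 2 in Ctrl. The libraries of *DUSP5* and *DUSP4* overlapped in ABS cells, and those of *DUSP5* and *ERRFI1* and of *ERRFI1* and *DUSP4* overlapped in Ctrl cells, so these neighbours in the order did not differ beyond their spread. In both groups *ERBB3*, *SPRY2*, *SPRY4*, *LRIG3* and *LRIG1* followed in this order, without overlap between neighbours, from 8.96 to 0.403 CPM per kilobase after ABS and from 9.42 to 0.351 in Ctrl. On this scale *ERBB2* stood at 91.7 in ABS cells and 93.7 in Ctrl cells, above all 10 genes.

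**Figure D3:**
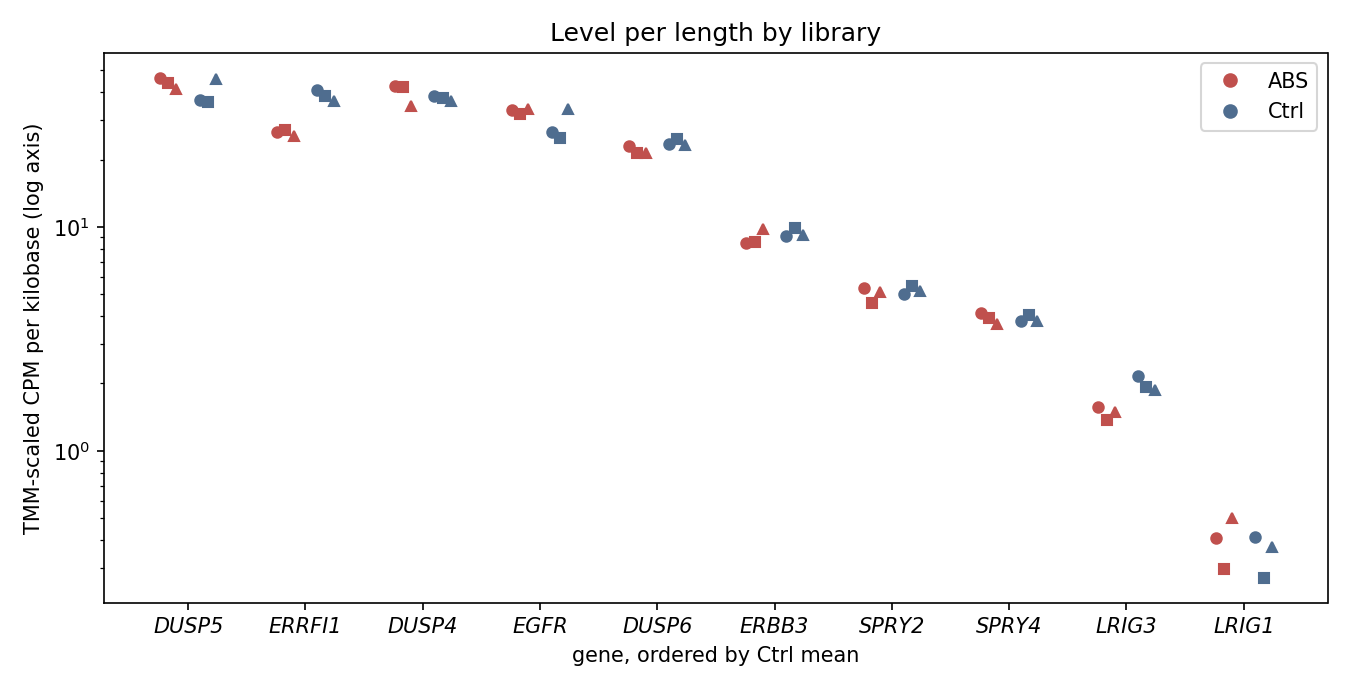
TMM-scaled CPM per kilobase of gene length (y axis, log scale) of the 10 genes in each ABS and Ctrl library, ordered by the Ctrl mean, with circles, squares and triangles for replicates 1, 2 and 3. *ERRFI1* lies near *DUSP5* and *DUSP4* in Ctrl libraries and below *EGFR* in ABS libraries.

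The ratio of *EGFR* to *ERRFI1* counts per length sets the receptor beside its inhibitor within a library and does not depend on scaling between libraries. It was 1.25, 1.18 and 1.32 in ABS replicates 1, 2 and 3, and 0.647, 0.652 and 0.917 in Ctrl replicates 1, 2 and 3. The ratio was above 1 in every ABS library and below 1 in every Ctrl library, with means of 1.25 ± 0.0690 after ABS and 0.739 ± 0.155 in Ctrl (SD, n = 3 each). The *ERRFI1* and *EGFR* differences given above both enter it, so its split of the groups is not a further result. The genes were chosen with the contrast known, and the ratio is given as a description. *EGFR* was level between the replicate 3 libraries, where the ratio was 1.32 in ABS and 0.917 in Ctrl. Where the true transcript lengths differ from the deposited gene lengths, all 6 ratios move by the same factor. The order of the libraries would stay, but their position relative to 1 depends on the deposited lengths. The ratio of *DUSP5* to *DUSP6*, taken in the same way, was 2.02, 2.04 and 1.92 in ABS replicates 1, 2 and 3. In Ctrl replicates 1, 2 and 3 it was 1.58, 1.47 and 1.98, so the groups overlapped.

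**Figure D4:**
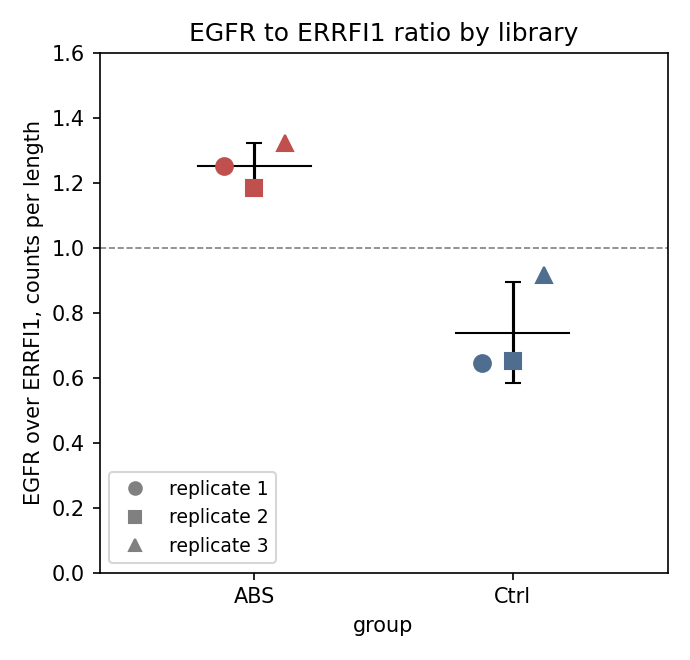
Ratio of *EGFR* to *ERRFI1* counts per length (y axis, from 0) in the ABS and Ctrl libraries, with 1 symbol per replicate, black bars for the mean and SD (n = 3) and a dashed line at 1. The ABS libraries lie between 1.18 and 1.32 and the Ctrl libraries between 0.647 and 0.917.

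The profile over the 6 libraries that lay nearest to *ERRFI1* was sought among 10076 other tested genes with a mean of at least 5 CPM, as the mean absolute difference of centred log2 CPM, which had a median of 0.279 over all genes. Among the nearest were *CCDC51* (0.0599), *HDAC11* (0.0675), which encodes a histone deacetylase, and the SOX transcription factor genes *SOX4* (0.0731) and *SOX13* (0.0767). *CCDC51* had 14.7, 14.7 and 15.4 CPM in ABS replicates 1, 2 and 3, and 21.0, 20.2 and 19.4 CPM in Ctrl replicates 1, 2 and 3. These genes lay lower in every ABS library than in any Ctrl library, which the likeness to *ERRFI1* brings with it, so no test of them is given.

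The other genes of the pathway, 85 in 6 lists, of which 79 were tested, had 2 members that rose and 0 that fell by edgeR over all genes, against the same 0.436% of all tested genes. Of the 79, 11 had an unadjusted p under 0.05, against 1343 of the 13768 genes tested, and DESeq2, with 1.45% of all its tested genes higher, gave 3 higher and 0 lower, with the ligand gene *EREG* as the third. *TGFA*, an EGFR ligand, rose in the list of EGF family ligands (1 of 8 higher, 0 lower, median log2 fold change 0.25). It had 324, 319.5 and 260.0 CPM in ABS replicates 1, 2 and 3, and 189.7, 184 and 215 CPM in Ctrl replicates 1, 2 and 3. Its log2 difference was 0.62 ± 0.09 (SE, adjusted p = 0.0143). *FOSL1*, an AP-1 subunit whose transcript depends on ERK, rose in the list of ERK-dependent transcripts (1 of 15 higher, 0 lower, median 0.03), at 0.49 ± 0.09 on the log2 scale (adjusted p = 0.0394). It had 490.4, 473.5 and 446 CPM in ABS replicates 1, 2 and 3, and 303, 314 and 384 CPM in Ctrl replicates 1, 2 and 3. The ABS libraries of both genes lay above their Ctrl libraries, and neither passed without ABS replicate 1, ABS replicate 2, Ctrl replicate 1 or Ctrl replicate 2, nor did *FOSL1* with library size as the scaling. Without ABS replicate 3 the number of pathway genes called higher was 5, against 1.33% of all genes in that fit. Without Ctrl replicate 3 it was 4, against 2.27%, with 4 called lower, *SPRY1* among them, against 0.829%. With a term for replicate 3, 5 were called higher, against 2.24% of all genes. The ligand genes *EREG* and *EPGN*, named after their values were seen, were among them. In the same fit 3 were called lower, *PHLDA1*, *ETV5* and *SPRY1*, against 1.14% of all genes. *PHLDA1* and *ETV5*, also named after their values were seen, are in the list of ERK-dependent transcripts with *FOSL1*. Over all libraries their log2 fold changes were −0.22 and −0.50, and neither passed. Of the 15 tested genes of that list, 9 had positive and 6 negative log2 fold changes. *EPGN* was read at 29, 26 and 35 counts in ABS replicates 1, 2 and 3, and at 7, 4 and 4 counts in Ctrl replicates 1, 2 and 3, with an adjusted p of 0.0536 over all libraries.

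In each of the other lists 0 genes passed by edgeR or DESeq2 in either direction. Among the 21 tested other inhibitors, with a median log2 fold change of 0.02 and 2 unadjusted p under 0.05, the smallest p belonged to *SPRY1*, a further Sprouty gene (−0.51, adjusted p = 0.279), and *PTPRJ*, a receptor-type phosphatase (0.18, 0.49). *SPRY1* averaged 8.31 ± 0.892 CPM after ABS and 11.9 ± 2.33 CPM in Ctrl (SD, n = 3 each). Its groups did not overlap, though ABS replicate 1, at 9.16 CPM, lay just under Ctrl replicate 3, at 9.18 CPM. Of the 21 genes, 3 had no overlap between the groups, against 14.5% of all tested genes. Of 9 genes of receptor endocytosis and ubiquitination (median −0.03, 1 unadjusted p under 0.05), the log2 value of *CBLB*, which encodes a ubiquitin ligase for activated receptors, was 0.37 (adjusted p = 0.392) and that of *RNF41*, whose product marks ERBB3 for breakdown, was −0.16 (0.626). Of 18 adaptors and core kinases (median 0.07, 1 unadjusted p under 0.05), *NRAS*, a RAS protein gene, had 0.21 (0.501) and *GAB2*, an adaptor, −0.43 (0.549). Of 8 other tested receptors (median 0.06, 0 unadjusted p under 0.05), *MET*, the receptor for hepatocyte growth factor, had 0.12 (0.726) and *IGF1R*, the receptor for insulin-like growth factor, 0.14 (0.787).

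**Figure D5:**
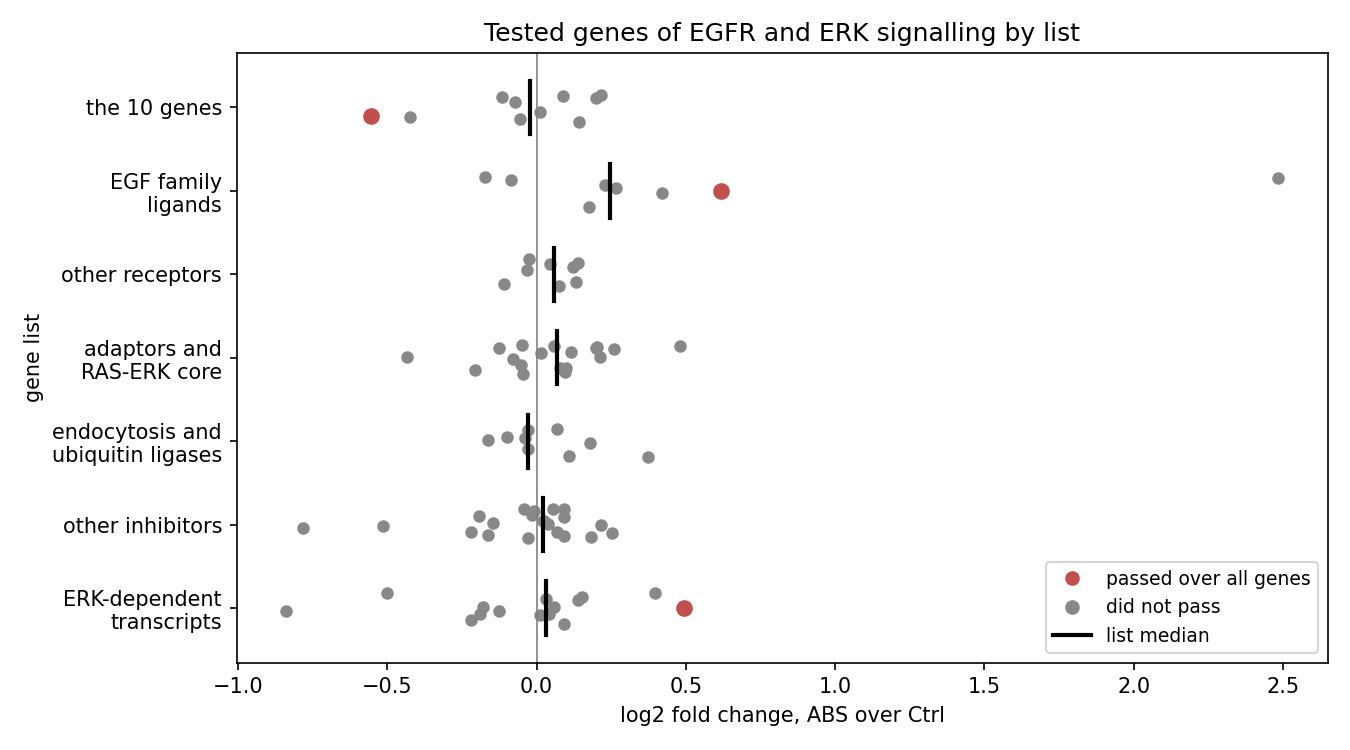
Log2 fold change of ABS over Ctrl (x axis) of the tested genes in each list (rows), with red points for genes that passed over all genes, grey points for the others and black lines for list medians. The red points are *ERRFI1* at −0.55, *TGFA* at 0.62 and *FOSL1* at 0.49.

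The interaction with replicate 3, a replicate of 1 library per group, passed in 9 of the 79 tested pathway genes, against 2.38% of all tested genes, and in all 9 the ABS difference was lower in replicate 3, as in 248 of the 328 called genes. Those named above were *TGFA* (−0.51, adjusted p = 0.000300), *FOSL1* (−0.43, 0.00145) and *MET* (−0.40, 0.000680). The log2 difference of *TGFA* was 0.78 in replicates 1 and 2 and 0.28 in replicate 3, and that of *FOSL1* was 0.64 in replicates 1 and 2 and 0.22 in replicate 3. *MET* had 0.25 in replicates 1 and 2 and −0.15 in replicate 3. The other 6, named after their values were seen, were *AREG*, *EREG*, *DUSP14*, *CCND1*, *EPHA2* and *SRF*. *EGFR* and *DUSP5* showed this pattern too, while the *ERRFI1* interval above held 0. Since the split was chosen with the replicate 3 libraries known to stand apart, these calls too are a description.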

How the data were processed

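The authors deposited a matrix of unnormalised gene counts with a column for each library, beside gene coordinates and lengths. The submitters' processing notes name HISAT2 2.0.5, featureCounts 1.5.0-p3 and GRCh38; the annotation release and strand setting are not given in the sources used here. Coordinates of all 10 genes equal those of GENCODE release 29. From the counts, genes were kept by filterByExpr (minimum count 10, minimum total 15), TMM-scaled (trimmed mean of M values), and tested with edgeR 4.0.16 in R 4.3.3 (quasi-likelihood F-test, two-sided, group as the only term, Benjamini-Hochberg over 13768 genes, threshold 0.05). SE is the size of the log2 fold change divided by the square root of F. Values within replicate subsets are log2 ratios of mean CPM. The interaction test added an indicator of replicate 3. DESeq2 1.42.0 was an alternative. On simulated counts (13768 genes, ABS against Ctrl) 50.6% of 83 genes changed 1.5-fold, 89.1% of 55 changed 2-fold and 85.5% of 62 changed 4-fold were recovered. Of 160 calls, 16 were false. The simulated libraries varied independently, without a shift shared by the replicate 3 libraries, so these rates do not cover that feature of the data. A count of 3, the limit that a count of 0 allows, equals 0.119 to 0.135 CPM; limits cover counting error only.

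The genes, lists and tests were chosen with earlier results of these data known. Named were all 10 genes and *ERBB2*, in each pathway list up to 4 called genes or otherwise the 2 with the smallest p, and the 5 genes nearest to *ERRFI1*, not all of which are reported here. Alternatives were other scaling, DESeq2, no filter, each library left out, a replicate block, a term for replicate 3, and replicates 1 and 2 alone.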

Additional observations from a re-analysis of the deposited data

How the results depend on the processing

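Over all genes 60 passed, against 35 with library size alone, 264 with DESeq2, 409 without a filter, 350 with the replicate block, 465 with a term for replicate 3, 1813 within replicates 1 and 2, and 12 to 438 with 1 library left out. Of the 10 genes, 1 was called lower, and 0 to 1 with 1 library left out. The number called higher was 0, against 0 to 1 with 1 library left out and 3 (*EGFR*, *DUSP4*, *DUSP5*) within replicates 1 and 2, where 7.83% of all genes were called higher. Of the pathway genes 2 were called higher, against 5 without a filter, 5 with the replicate block, 1 with library size alone, 5 with the term for replicate 3, 15 within replicates 1 and 2 and 0 to 5 with 1 library left out. The number called lower was 0, against 1 without a filter, 1 with the replicate block, 3 with the term for replicate 3, 5 within replicates 1 and 2 and 0 to 4 with 1 library left out. In the same fits the share of all genes called higher was 1.17% without a filter, 1.77% with the block, 0.225% with library size alone, 2.24% with the term and 7.83% within replicates 1 and 2, and the share called lower was 0.473%, 0.77%, 0.0291%, 1.14% and 5.33% in the same order of settings. Leaving out the replicate 3 libraries removes a source of spread by construction; the other causes were not tested. Genes with a replicate 3 interaction numbered 328, and 256 to 399 over its alternatives, of which those leaving out a library were added after seeing the data. The log2 fold change of *ERRFI1* lay between −0.59 and −0.51 over 13 alternatives and passed in 10. Signs turned for *SPRY2* (−0.10 to 0.0069 with 1 library left out) and *SPRY4* (−0.0019 with library size alone, −0.033 to 0.057 with 1 library left out), and in the interaction for *ERRFI1* (−0.016 to 0.083), *DUSP6* (−0.041 to 0.053) and *SPRY2* (−0.044 to 0.18) with 1 library left out; none of these was called. Same-numbered libraries had correlations of their deviations from the group means of 0.0425, 0.0333 and 0.167 for replicates 1, 2 and 3. The value of replicate 3 was the highest of all, while ABS replicate 2 correlated best with Ctrl replicate 1 (0.0934). With 3 libraries per group these values cannot decide whether the numbers mark pairs. The labels do not say so, and the main fit therefore used no pairing. With the block *ERRFI1* was the single one of the 10 called, and 0.77% of all genes were called lower. *LRIG1* had the fewest counts of the 10 genes, at 42 to 90 counts a library.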
